A study of Mus musculus with 8 samples.

Results

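The cell line tI-3, a derivative of a p53-inducible mouse fibroblast line that also carries a constitutive IMPDH II transgene, was compared with both other lines of the study, and the genes described here are those whose level in tI-3 differed from both in the same direction. Of 18172 distinct expression profiles, 964 (5.3%) were higher in tI-3 than in both lines and 1597 (8.79%) were lower. A profile is 1 probe set, or several whose values on all arrays are identical, and a difference was called at a limma adjusted p under 0.05 against each line. The 8 arrays hold 2 of tI-3, 3 of Ind-8 and 3 of Con-3.

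The study set these lines side by side to find genes that follow the pattern of cell self-renewal. All of them were clones, and all media held ZnCl2 (65 µM, for 48 h) and puromycin (5 µg/ml). Ind-8 (ASYM) expresses wild-type mouse p53 when zinc switches on its metallothionein promoter, and Con-3 (SYM) is p53-null. The labels name Con-3 as the parent of Ind-8, whereas the study's methods name it as a vector control. The line tI-3 (p53SYM) was made from Ind-8, so it too expresses p53 in zinc, and its transgene keeps IMPDH II on in the presence of p53. Only the tI-3 medium held the drug G418, which the labels give as 1 µg/ml and the study's methods as 1 mg/ml. Each condition is 1 clone, and the transgene, the drug and the descent of the clone cannot be told apart. Replicates were independent cultures of these clones.

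IMPDH, inosine monophosphate dehydrogenase, catalyses the rate-limiting step of guanine nucleotide synthesis, and p53 lowers the type II enzyme in these cells. Fibroblasts make collagens and other matrix proteins, the proteases that cut them, and a contractile apparatus of actin, myosin and their regulators. Many contractile genes are driven by serum response factor (SRF), which binds a short promoter element, the CArG box. Genes of sterol and fatty acid synthesis are driven together by the SREBP transcription factors when cell sterol is low.

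The tI-3 arrays correlated with those of the other lines at r = 0.979 to 0.984 over all profiles, against 0.994 to 0.996 between arrays of the same line. Ind-8 and Con-3 arrays correlated with each other at 0.980 to 0.988, a range that overlaps that of tI-3. The spike-in hybridization controls, bacterial transcripts added in fixed amounts, averaged 9.43 and 9.71 on the tI-3 arrays and 9.62 on Con-3 replicate 3, against 8.98 to 9.16 on the other arrays. The middle range of levels was narrower in tI-3, with an interquartile range of 3.82 and 3.72 against 3.93 to 4.17. With profiles split by mean level into 4 bins of 4543, lower calls were 16.0% of the brightest bin and 0.132% of the dimmest, and higher calls were most frequent, at 9.51%, in the bin next to the dimmest. With arrays blocked by their hybridization-control level, the comparison with both lines called 131 profiles higher and 258 lower. The high block held both tI-3 arrays and Con-3 replicate 3 only, so that array alone separates the block from the line. With the arrays quantile-normalized again it called 1047 higher and 1135 lower, so the balance of higher to lower calls depends on the scaling. Of 9 epithelial, 6 endothelial and 9 leukocyte marker genes measured, 0, 1 and 2 (0.0%, 16.7% and 22.2%) were called higher in tI-3, against 5.34% of all genes. The median levels of these marker sets in tI-3 were 4.49, 4.16 and 4.68, near the dim end of the arrays at 4.29.

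Against the mean of both lines with equal weight per line, 2417 profiles (13.3%) were higher in tI-3 and 2995 (16.5%) were lower. Against Ind-8 alone 2691 (14.8%) were higher and 2893 (15.9%) lower, and against Con-3 alone 1867 (10.3%) were higher and 2827 (15.6%) lower. Ind-8 and Con-3 differed from each other in 3827 profiles (21.1%). Among the profiles apart from both lines, 119 of the 964 higher ones and 375 of the 1597 lower ones also differed between Ind-8 and Con-3. The difference from the nearer of both lines had a median of 0.46 on the log2 scale for higher profiles and −0.54 for lower ones, and it reached 1 or more in size in 55 and 162 of them. Without tI-3 replicate 2 the counts fell to 338 higher and 729 lower, and without Con-3 replicate 2 to 605 higher and 1244 lower. The last profiles to be called were those of Prdx6b and 4930451I11Rik, each with an adjusted p of 0.0499, and the first to be left out were those of Usp12 and Ggps1, each at 0.0501.

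**Figure D1:**
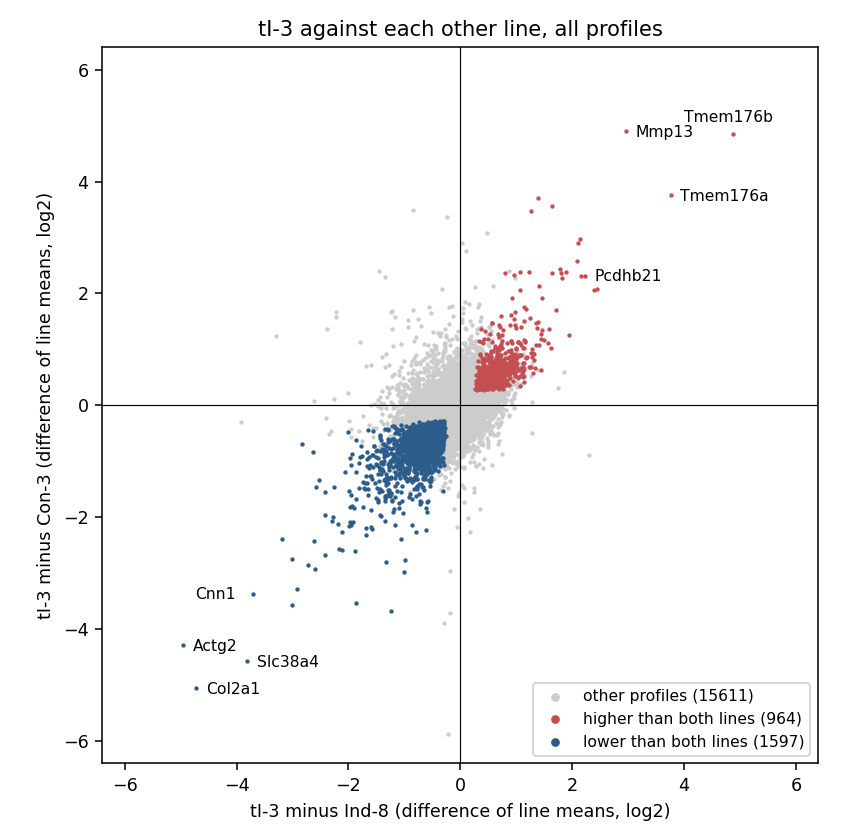
Difference of line means between tI-3 and Ind-8 (horizontal axis, log2) and between tI-3 and Con-3 (vertical axis, log2) for all 18172 profiles, 1 point each. Red points are the 964 profiles higher and blue points the 1597 profiles lower in tI-3 than in both lines. Both axes share the tI-3 arrays, so the diagonal spread of the points is in part built in. Tmem176b stands farthest out on the high side and Col2a1 and Actg2 on the low side.

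The genes that stood highest above both lines were Tmem176b and its neighbour Tmem176a, which encode related membrane proteins best known from immune cells. Tmem176b read 11.38 and 11.37 on the tI-3 arrays, 6.33, 6.51 and 6.68 in Ind-8, and 6.29, 6.45 and 6.81 in Con-3. Tmem176a read 8.73 and 8.65 in tI-3, 4.94, 4.78 and 5.06 in Ind-8, and 4.92, 5.00 and 4.88 in Con-3. The tI-3 arrays thus stood far above the other lines, which overlapped each other for both genes. The difference from the nearer line was 4.86 ± 0.15 (log2, SE of the limma fit) for Tmem176b, a 29.0-fold rise with an adjusted p of 9.88e-08, and 3.75 ± 0.11 for Tmem176a, a 13.5-fold rise with an adjusted p of 6.1e-08.

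In the RefSeq genome GRCm38.p6 both genes are transcribed away from a shared stretch on chromosome 6, which is shown here because it separates the closest start sites of the 2 genes that rose most. It covers chr6:48841375-48841482, 108 bases, on the strand that carries Tmem176a. No exact match to the CArG box was found in it.
Tmem176b to Tmem176a: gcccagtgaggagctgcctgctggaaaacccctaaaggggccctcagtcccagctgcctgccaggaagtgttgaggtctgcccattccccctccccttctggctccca

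Next came Mmp13, the interstitial collagenase that cuts fibrillar collagen, at 10.08 and 9.32 in tI-3, 7.97, 6.87 and 5.38 in Ind-8, and 6.29, 4.20 and 3.89 in Con-3. Both tI-3 arrays were above every other array, but the arrays of the other lines were spread more widely for Mmp13 than for the other leading genes. The difference from Ind-8 was 2.96 ± 0.76 (adjusted p = 0.0157 by limma), and the call was lost without tI-3 replicate 1 (adjusted p = 0.097) or replicate 2 (0.062). Mmp3, the stromelysin that activates collagenases, read 7.67 and 6.90 in tI-3 and 4.94 to 6.24 on the other arrays, 2.64-fold above Ind-8.

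Ppargc1a, which encodes the PGC-1alpha coactivator of mitochondrial genes, was 6.09 and 5.82 in tI-3, 3.80, 3.89 and 3.70 in Ind-8, and 3.60, 3.65 and 3.65 in Con-3. In both other lines it lay below the dim end of the arrays, and in tI-3 it rose 4.45-fold above the nearer line (adjusted p = 2.43e-06 by limma). The remaining genes of the 15 that led the higher profiles were Pcdhb21, Pate14, Slc22a29, Rims2, Blnk, Cp, C3, Nol4, Rragd and Il1rl1. Their differences from the nearer line ran from 2.23 for Pcdhb21, a clustered protocadherin, to 1.45 for Il1rl1, the interleukin-33 receptor. They include Cp, the copper-carrying ferroxidase ceruloplasmin (1.82), C3, the central complement component (1.78), Blnk, an adaptor of B-cell receptor signalling (2.07), and Rragd, a Rag GTPase of amino acid sensing (1.63). Pcdhb21, Pate14 and Slc22a29 belong to families of close relatives, so part of their signal may come from relatives that share probes. A second Nol4 profile stood only 0.99 above the nearer line, against 1.70 for the first. Pcdhb21 lay below the dim end in both other lines, and Pate14, Slc22a29 and C3 did so in Con-3.

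**Figure D2:**
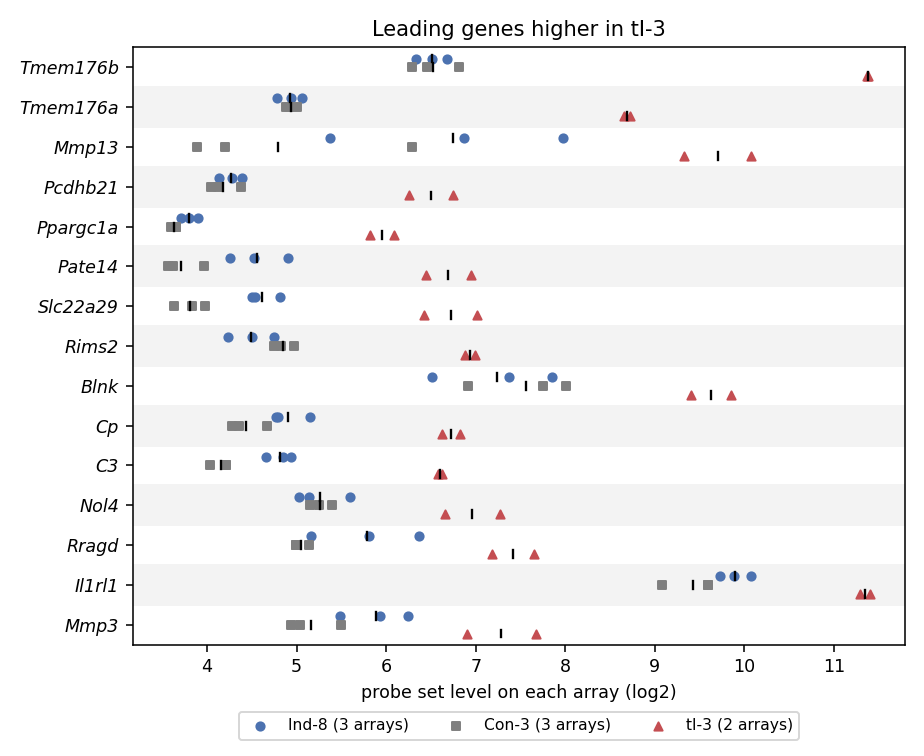
Level of each of the 15 leading higher genes (rows) on every array (horizontal axis, log2), with circles for Ind-8, squares for Con-3 and triangles for tI-3, and a short black line at the mean of each line. Tmem176b and Tmem176a show the widest gap between tI-3 and the other lines, and the Mmp13 points of Ind-8 and Con-3 are the most scattered.

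Col2a1 fell furthest below both lines, followed by Actg2. Col2a1, which encodes the main collagen of cartilage, read 6.85 and 6.87 in tI-3, 11.78, 11.19 and 11.76 in Ind-8, and 12.17, 11.62 and 11.93 in Con-3. It was 26.4-fold lower than in the nearer line, a log2 difference of −4.72 ± 0.19 from Ind-8 (adjusted p = 6.72e-07 by limma). The tI-3 arrays differed from each other by less than those of either other line.

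Actg2, the gamma actin of visceral smooth muscle, read 5.19 and 5.00 in tI-3, 10.32, 9.63 and 10.19 in Ind-8, and 9.85, 8.82 and 9.49 in Con-3. Cnn1, the calponin that restrains actomyosin, read 7.76 and 7.98 in tI-3, 11.50, 11.37 and 11.86 in Ind-8, and 11.54, 10.83 and 11.33 in Con-3. Tagln, the actin-bundling transgelin, read 9.54 and 9.85 in tI-3, 12.76, 12.48 and 12.87 in Ind-8, and 12.68, 12.16 and 12.51 in Con-3. For each of these genes the ranges of Ind-8 and Con-3 overlapped and both tI-3 arrays lay well below them. Against the nearer line the falls were 19.6-fold for Actg2, 10.3-fold for Cnn1 and 6.73-fold for Tagln, with adjusted p-values of 6.24e-06, 4.66e-06 and 5.59e-06 by limma.

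Slc38a4, a transporter of neutral amino acids, read 4.85 and 4.41 in tI-3, 8.42, 8.44 and 8.46 in Ind-8, and 9.34, 9.07 and 9.21 in Con-3. It fell 14.0-fold below Ind-8 (adjusted p = 2.16e-07 by limma), and Ind-8 was itself 0.77 below Con-3. The other leading lower genes were Serpinf1, Igfbp7, Akap12, Prorsd1, Has2, Col3a1, Cdh11, Cebpa, Creb3l1 and Klhdc8a, between 8.02-fold and 4.34-fold lower than in the nearer line. Serpinf1 encodes the secreted antiangiogenic factor PEDF (8.02-fold), and Klhdc8a was the last of them. On the log2 scale the differences include Has2, a hyaluronan synthase (−2.42), Cdh11, a cadherin of mesenchymal cells (−2.40), Akap12, a protein kinase A scaffold (−2.73) and Creb3l1, a transcription factor that drives collagen genes in bone (−2.12).

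With the hybridization-control level as a block, the call was lost for Mmp13, Rragd, Mmp3, Has2 and Col3a1, with adjusted p-values of 0.0937, 0.0956, 0.0975, 0.0669 and 0.0546. Their differences from the mean of both lines were 5.07, 2.06, 1.92, −2.37 and −2.78 with the block, and 3.93, 2.00, 1.77, −2.52 and −2.55 without it. The block separates from the line by Con-3 replicate 3 alone.

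**Figure D3:**
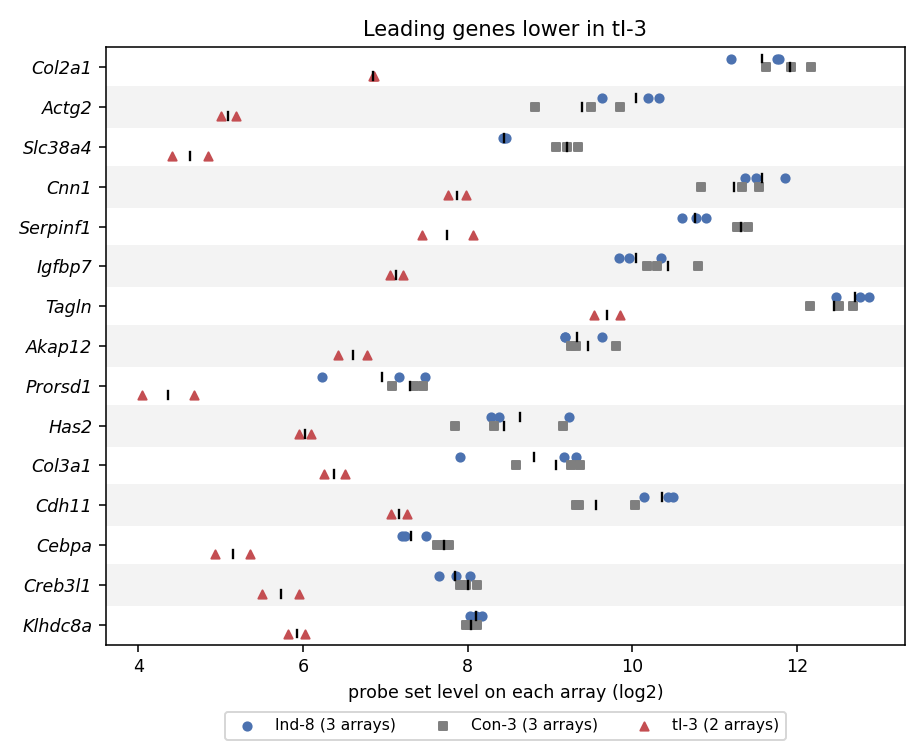
Level of each of the 15 leading lower genes (rows) on every array (horizontal axis, log2), with circles for Ind-8, squares for Con-3 and triangles for tI-3, and a short black line at the mean of each line. The triangles lie to the left of all other points for each gene, by the most for Col2a1.

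Gene lists were counted by 1 profile per gene, on which 5.34% of 15540 genes were higher and 9.41% lower than in both lines. The median difference of tI-3 from the mean of both lines was 0.03 over these genes.

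Of 32 measured genes for collagens and other matrix proteins, 17 fell and 1, Col8a1, rose, and the median difference was −0.64. The fibrillar collagens Col1a1, Col3a1, Col5a1 and Col5a2, the basement membrane collagens Col4a1, Col4a2 and Col18a1, and Col6a1 and Col6a2 all fell. The fibrillar collagen gene Col1a2, measured as a fibroblast marker, was not called. Col1a1, a chain of the main collagen of connective tissue, read 10.64 and 11.06 in tI-3 against 12.02, 12.33 and 12.66 in Ind-8 and 11.59, 11.97 and 12.17 in Con-3. Tnc, the matrix glycoprotein tenascin C, read 8.42 and 8.59 in tI-3 against 10.08 to 11.07 in Ind-8 and 10.19 to 10.94 in Con-3. Sparc and Thbs2, which organize the matrix around cells, were at −0.97 and −1.50 from the nearer line, and the collagen-modifying enzymes Plod2 and P4ha1 at −0.65 and −0.50. The fibronectin gene Fn1 did not follow, since in tI-3 it lay between the other lines at 12.71 and 12.79 against 13.14 to 13.22 and 12.42 to 12.53.

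Of 23 measured proteases that remodel the matrix and their inhibitors, 2 (8.7%), Mmp3 and Mmp13, rose and 5 (21.7%) fell, against 5.34% and 9.41% of all genes. These were Mmp2, the gelatinase (−0.45 from the nearer line), the inhibitors Timp1 (−0.86) and Timp3 (−0.54), and Adamts1 (−0.62) and Adamts5 (−0.78), which cut proteoglycans. Among 12 fibroblast marker genes, Col1a1, Col3a1 and the growth factor receptor Pdgfra fell and Thy1 rose, by 0.37 above the nearer line, from below the dim end in both other lines. Vim, the intermediate filament of mesenchymal cells, stayed bright at 13.75 and 13.56 in tI-3, 13.87 to 14.08 in the other lines, a difference that did not pass the test.

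Of 26 contractile and SRF-related genes, 11 fell and 0 rose, with a median difference of −0.53. By unadjusted p under 0.05 against both lines 13 were lower and 1 higher, and the rank product test called 4 lower and 0 higher. The members that fell were Actg2, Cnn1 and Tagln above, the actin Acta2, the light chain Myl9, the tropomyosins Tpm1 and Tpm2, Cnn2, the Z-line proteins Ldb3 and Pdlim7, and Srf itself. Acta2, the alpha actin that marks myofibroblasts, read 13.20 and 13.21 in tI-3 and 13.98 to 14.17 on the other arrays, a fall of 0.86 ± 0.10 from Ind-8 (adjusted p = 0.000293 by limma). Myl9 read 11.58 and 11.54 in tI-3 and 12.57 to 13.02 on the other arrays. Srf averaged 8.04 in tI-3 and read 8.69, 8.28 and 8.63 in Ind-8, and 8.94, 8.86 and 8.71 in Con-3, a fall of 0.49 ± 0.13 from Ind-8 (adjusted p = 0.0197). Myh11, the smooth muscle myosin heavy chain, lay under the dim end of the arrays in all lines.

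Promoter windows of 250 bases before the start site, from RefSeq on GRCm38.p6, were searched on both strands for the CArG box. Only exact matches to CC, 6 bases of A or T, and GG were counted, so a variant box would be missed. An exact match was present in 5 of the 20 members of the contractile list that have a window. Over all measured genes it was present in 183 of 12317 (1.49%), over lower genes in 29 of 1186 (2.45%), and over higher genes in 6 of 607 (0.988%). The list was drawn up from genes known for SRF control, so its own share follows from that choice. The windows of the 4 lower members that hold the box are printed below with the box in capitals, since these genes fell together with Srf. They cover chr10:79988350-79988599 (Cnn2, plus strand), chr2:156775214-156775463 (Myl9, plus strand), chr17:46556163-46556412 (Srf, minus strand) and chr14:34588682-34588931 (Ldb3, minus strand). The boxes begin 56 bases before the start site in Cnn2, 161 in Myl9, 82 and 62 in Srf and 35 in Ldb3, and those of Srf do not overlap.
Cnn2: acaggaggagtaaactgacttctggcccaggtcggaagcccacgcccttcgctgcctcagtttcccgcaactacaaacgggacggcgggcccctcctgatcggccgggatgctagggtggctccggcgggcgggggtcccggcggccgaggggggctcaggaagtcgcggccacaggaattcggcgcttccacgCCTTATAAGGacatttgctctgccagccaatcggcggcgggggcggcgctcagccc
Myl9: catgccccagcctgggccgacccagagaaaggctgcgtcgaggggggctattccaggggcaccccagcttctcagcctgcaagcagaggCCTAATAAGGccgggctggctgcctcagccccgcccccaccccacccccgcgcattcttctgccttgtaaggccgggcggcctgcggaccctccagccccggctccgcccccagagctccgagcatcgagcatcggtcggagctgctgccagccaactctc
Srf: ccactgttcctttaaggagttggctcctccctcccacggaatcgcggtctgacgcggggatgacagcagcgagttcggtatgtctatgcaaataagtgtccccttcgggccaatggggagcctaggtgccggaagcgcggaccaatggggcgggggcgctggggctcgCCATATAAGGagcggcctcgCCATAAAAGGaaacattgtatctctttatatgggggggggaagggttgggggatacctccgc
Ldb3: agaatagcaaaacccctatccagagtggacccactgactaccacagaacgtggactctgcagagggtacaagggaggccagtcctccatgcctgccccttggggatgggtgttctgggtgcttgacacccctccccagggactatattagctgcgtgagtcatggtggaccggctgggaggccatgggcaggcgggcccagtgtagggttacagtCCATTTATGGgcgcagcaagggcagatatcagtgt
The fifth member with the box, Vcl, was not called, and 5 members, Cnn1, Acta2, Tpm1, Tpm2 and Pdlim7, fell without an exact match in their window. Of the 15 leading lower genes 8 have a window, and 0 of these hold an exact match. For Actg2 and Tagln no window was used.

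Of 23 genes for the synthesis of cholesterol and fatty acids, 12 fell and 0 rose, with a median difference of −0.54. By unadjusted p under 0.05 against both lines 15 were lower and 0 higher, and the rank product test called 0 in either direction. The falls were of like, moderate size. In the sterol branch they included Mvd, Sqle, Lss, Cyp51, Msmo1, Nsdhl and Dhcr7, enzymes from mevalonate to cholesterol, at −0.52 to −0.80 from the nearer line. In the fatty acid branch they covered Acly, Acaca, Scd1 and Scd2, at −0.48 to −0.93. Cyp51, the lanosterol demethylase, read 9.53 and 9.55 in tI-3 and 10.27 to 10.45 on the other arrays. Scd1, the stearoyl-CoA desaturase, read 9.17 and 9.10 in tI-3, 9.89, 10.10 and 10.21 in Ind-8, and 10.00, 10.31 and 10.27 in Con-3. Srebf2, which encodes one of the SREBP factors, overlapped the other lines.

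Most members of these lists are bright genes, and lower calls took 15.8% and 16.0% of the 2 brighter bins of all profiles. The lists were also compared with Con-3 replicate 3, the array whose hybridization controls were as high as those of tI-3 but whose 18S ribosomal RNA controls, at 10.6, stood apart from the 5.58 to 6.46 of the other arrays. These values carry no test. The tI-3 mean lay below that array for 26 of 32 matrix genes (median −0.74), 19 of 26 contractile genes (median −0.58) and 20 of 23 lipid genes (median −0.54). With the control level as a block, 6 matrix, 9 contractile and 2 lipid genes were called lower, and without tI-3 replicate 1 the lipid genes called lower numbered 6.

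Of 31 genes of the TGF-beta and BMP pathway, 9 (29.0%) fell and 2 (6.45%) rose, against 9.41% and 5.34% of all genes. The ligands Tgfb1, Tgfb2 and Tgfb3 all fell, at −0.92, −0.98 and −1.04 from the nearer line, as did the activin subunit Inhbb at −1.83. Inhbb read 6.28 and 6.63 in tI-3 and 7.99 to 8.57 on the other arrays. Also lower were the latent TGF-beta binding protein Ltbp2, the BMP antagonist Grem1, the secreted Fstl1, and the TGF-beta responsive matrix genes Tgfbi and Ccn2. The signal transducer Smad3 and the BMP antagonist Nog rose, by 0.54 and 0.41 above the nearer line, with Nog below the dim end in all lines. The median difference over the list was −0.02, and 2 members were called lower with the control level as a block.

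Of 42 adhesion genes 7 (16.7%) were lower, against 9.41% of all genes, and 2 (4.76%) higher, against 5.34%. Besides Cdh11, the cadherins Cdh3 and Cdh13, the protocadherin Pcdh19, the gap junction genes Gja1 and Gjb2 and the junction plaque gene Jup fell, and Itgb7 and Cdh6 rose. A second Cdh3 profile overlapped the other lines and was not called, at −0.04 from Ind-8 and −0.55 from Con-3 (adjusted p = 0.889 by limma). Of 33 Wnt genes 3 (9.09%) fell and 0 rose, near the lower share over all genes. Among them was Sfrp2, a secreted Wnt modulator, at 8.94 and 9.23 in tI-3 against 10.38 to 11.46 on the other arrays. Of 28 genes of the unfolded protein and amino acid response, 5 (17.9%) fell (Atf3, Xbp1, Chac1, Dnajc3 and Slc3a2). In that list 1 (3.57%) rose (Slc7a11, the cystine transporter, by 1.13 above Ind-8).

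A few lists had more members above than below both lines. Of 32 chemokine, cytokine and Toll-like receptor genes 5 (15.6%) rose and 0 fell, against 5.34% and 9.41% of all genes. They were the chemokines Ccl2 and Cxcl1, the NF-kappaB inhibitor Nfkbia, and the acute phase genes Saa3 and Lcn2. Ccl2 read 9.88 and 9.62 in tI-3, 7.66, 8.26 and 8.55 in Ind-8, and 8.07, 8.57 and 8.53 in Con-3. Of 28 interferon response genes Gbp2, Cxcl10, Ifit2 and Mx2 (14.3%) rose and Ifih1 (3.57%) fell. In the list of 28 detoxification genes Sod3, Aldh1a2, Aldh3a1 and Akr1c18 (14.3%) rose and 0 fell. Lcn2 and Aldh1a2 lay below the dim end of the arrays in all lines, and Gbp2 and Aldh3a1 in both lines other than tI-3. By unadjusted p under 0.05, 1 chemokine-list gene and 0 detoxification genes were lower than both lines, and the rank product test called 0 lower in either list. The rank product test called 1 chemokine-list, 0 interferon and 0 detoxification genes higher. With the control level as a block, 0 chemokine-list, 2 interferon and 0 detoxification genes were called higher. Among 35 Hox genes 5 (14.3%) rose (Hoxb3, Hoxb6, Hoxb9, Hoxb13 and Hoxc6) and 3 (8.57%) fell, among them Hoxd8 and Hoxd9. Hoxb3 was below the dim end in all lines, and Hoxb6 and Hoxb9 in Ind-8 and Con-3. The median levels of the chemokine, interferon and Hox lists in tI-3 were 5.35, 5.34 and 4.79, within the bin next to the dimmest. In that bin of all profiles, 9.51% were higher and 3.21% lower than in both lines. Of 5 adipocyte markers measured, 1 rose, 1 fell and the other 3 were not called. They were Fabp4, a fatty acid carrier, at 9.55 and 8.94 in tI-3 against 7.31 to 8.22 in Ind-8 and 5.15 to 5.92 in Con-3, and, among the leading lower genes above, the adipogenic factor Cebpa at 5.36 and 4.93 against 7.20 to 7.77.

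**Figure D4:**
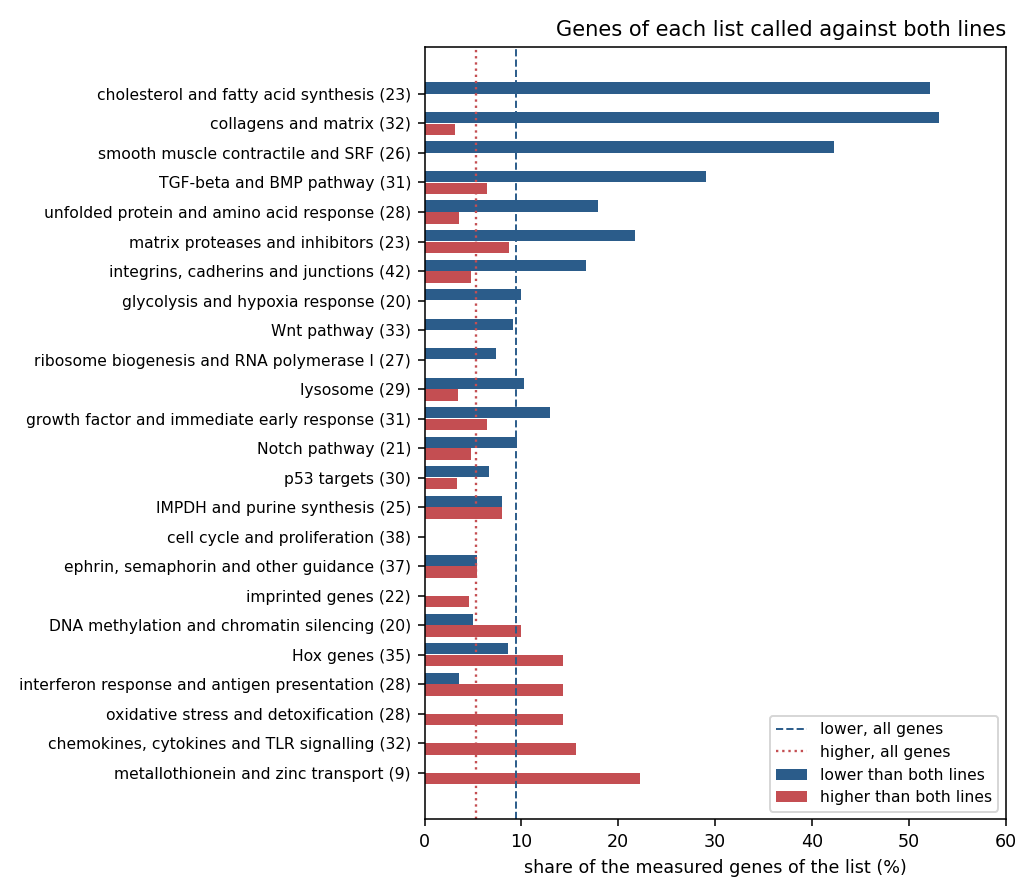
Share of the measured genes of each list (number in brackets) that was lower (blue bars) or higher (red bars) in tI-3 than in both lines, in percent. The dashed blue and dotted red lines mark the shares over all genes, 9.41% and 5.34%. The matrix, lipid synthesis and contractile lists reach 53.1%, 52.2% and 42.3% lower, and the proliferation list has no call.

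The gene that names the line was not apart from the other lines. Impdh2 read 12.34 and 12.38 in tI-3, 12.16, 12.19 and 12.22 in Ind-8, and 12.51, 12.56 and 12.53 in Con-3, so that tI-3 lay between them, 0.17 ± 0.09 above Ind-8 and 0.17 ± 0.09 below Con-3. Whether the probes of Impdh2 cover the transgene is not given in the sources used here, so this level does not check the label. Of 25 genes of purine synthesis and salvage, Gmps, the enzyme that makes GMP from the product of IMPDH, rose by 0.30 above Ind-8, to 11.57 and 11.46 from 11.15 to 11.31 on the other arrays. Xdh, which degrades purines, rose by 1.14, and Prps2, which makes the ribose precursor, and Gmpr2, which turns GMP back to IMP, fell by 0.45 and 0.45. In this list 8.0% were higher and 8.0% lower, against 5.34% and 9.41% of all genes. The metallothioneins Mt1 and Mt2, which zinc induces, were bright in all lines and did not pass the test against both lines, at 13.47 to 13.95 and 12.94 to 13.56. For Mt2 both tI-3 arrays lay below all others, with an adjusted p by limma of 0.0242 against Con-3 and 0.0847 against Ind-8.

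Genes that separate Ind-8 from Con-3 were often intermediate in tI-3. Over all genes 3424 of 15540 (22%) differed between Ind-8 and Con-3, and the tI-3 mean lay between the means of those lines for 1757 of them (51.3%). For all 15540 genes, called or not, that share was 24.5%. Sets chosen by a gap between Ind-8 and Con-3 leave more room for tI-3 between, so part of the larger share is built in. Of 30 p53 target genes 22 differed between Ind-8 and Con-3, 15 of these were intermediate in tI-3, and 1 (3.33%) was higher and 2 (6.67%) lower than in both lines, near the shares over all genes. Cdkn1a, the p21 cell cycle inhibitor, read 7.55 and 7.33 in tI-3, 9.70, 9.70 and 9.59 in Ind-8, and 5.73, 5.81 and 6.03 in Con-3. Mdm2 and Ccng1, both induced by p53, were likewise intermediate, at 9.67 and 9.56 and at 10.93 and 10.77. The p53 targets apart from both lines were Perp, which rose by 0.58 above the nearer line from below the dim end, and Sesn1 and Dcxr, which fell by 0.85 and 0.69 below it. Trp53 itself read 5.60 and 5.69 in tI-3, 5.68 to 5.87 in Ind-8 and 5.21 to 5.29 in Con-3.

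Of 38 cell cycle and proliferation genes, 0 were apart from both lines in either direction by limma, although 30 differed between Ind-8 and Con-3. In tI-3 the mean lay between those of the other lines for 20 of these 30. At an unadjusted p under 0.05 against both lines 1 was higher and 0 lower, and the rank product test called 0. Top2a, the topoisomerase of dividing cells, read 11.10 and 11.04 in tI-3, 10.88, 10.49 and 10.85 in Ind-8, and 11.29, 11.40 and 11.49 in Con-3. Of 31 growth factor response genes, the AP-1 members Fosl1 and Fosl2 rose, by 0.90 and 0.53 above the nearer line, and Jun, the phosphatase Dusp1, and Etv4 and Etv5, which respond to fibroblast growth factors, fell, by 0.54, 0.48, 1.07 and 1.29. Of 21 Notch pathway genes the ligand Dll1 rose by 0.52 and the receptor Notch1 and its target Hey2 fell by 0.83 and 0.93, Hey2 to below the dim end. Of 29 lysosome genes Npc1, which exports cholesterol from lysosomes, rose by 0.91, and the cathepsins Ctsz and Ctsh fell by 0.51 and 0.71. Higher and lower calls made up 6.45% and 12.9% of the growth factor list and 4.76% and 9.52% of the Notch list. In the lysosome list they were 3.45% and 10.3%, against 5.34% and 9.41% of all genes. The remaining lists had at most 2 calls in 1 direction.

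The genes apart from both lines were not spread evenly over the chromosomes, a pattern looked for after the values had been seen and given without a test. It was counted over 11926 genes above the dim end, of which 5.91% were higher and 12.2% lower. On chromosome 10, 197 of 575 genes (34.3%) were lower and 8 (1.39%) higher. The median difference there was −0.32 and −0.37 on the tI-3 arrays and −0.03 to 0.04 on the other arrays, each against the mean of both other lines. On chromosome 8, 20.5% of 654 genes were lower, with a median of −0.19. On chromosome 18, 27.3% of 282 genes were higher, with a median of 0.27, and on chromosome 3, 15.7% of 554 were higher, with a median of 0.17. Chromosome 18 also differed between the other lines, with Ind-8 lower than Con-3 by a median of 0.22.

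**Figure D5:**
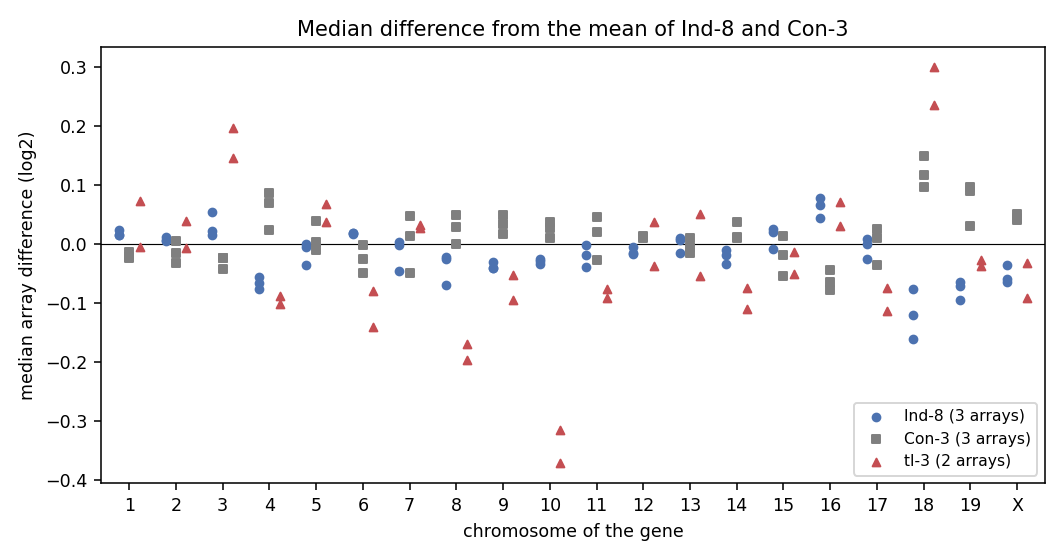
Median over the genes of each chromosome (horizontal axis) of the difference between 1 array and the mean of Ind-8 and Con-3 (vertical axis, log2), with circles for Ind-8, squares for Con-3 and triangles for tI-3. The tI-3 triangles leave the other arrays on chromosomes 10 and 8, at −0.32 and −0.37 and at −0.17 and −0.20, and on chromosomes 18 and 3, at 0.30 and 0.23 and at 0.20 and 0.14.

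Runs of neighbouring genes stood apart in the same direction. Among 11546 windows of 20 neighbouring genes, the one from Cenpw to Fyn on chromosome 10 had 16 genes lower and 0 higher than in both lines, with a median of −0.77, and there Ind-8 and Con-3 differed by a median of only −0.07. It holds the histone deacetylase Hdac2, the kinase Fyn, the Notch effector Hey2 and the dermatan sulfate enzyme Dse. The window from Adgrl2 to Lrrc40 on chromosome 3 had 12 genes higher and 1 lower, with a median of 0.86, among them Acadm, an enzyme of fatty acid oxidation, Pigk, which attaches proteins to membrane anchors, and Zranb2, a splicing factor. The gene lower in that window was Cth, which makes cysteine from cystathionine, at −1.01 from Ind-8 and −2.98 from Con-3. The window from Dct to Ggact on chromosome 14 had 11 genes lower and 2 higher, with a median of −0.79, and Ind-8 was already lower than Con-3 there by a median of 0.59. Neighbouring windows on chromosome 18, from 1700066B19Rik to Hars and from Hars2 to Spry4, each had 11 genes higher and 0 lower. These counts come from windows chosen for their size of shift.

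The lower calls of the gene lists were shared between these chromosomes and others. Chromosome 10 holds 4 of the 17 matrix genes that fell (Col6a1, Col6a2, Col18a1 and P4ha1) and chromosome 8 holds 2 (Col4a1 and Col4a2). Chromosome 10 also holds Cnn2 of the contractile genes, Lss of the lipid genes, Ccn2 and the leading gene Akap12, and chromosome 8 holds Msmo1, Mvd and Cdh11. The higher genes named above include Cp, Gmps, Gbp2, Slc7a11 and Fabp4 on chromosome 3, where Sfrp2 fell. They also include Pcdhb21, Nol4 and Npc1 on chromosome 18, and Pcdhb21 is in the window from Hars2 to Spry4. Without chromosomes 8, 10 and 18, 707 of 13616 genes (5.19%) were higher and 1112 (8.17%) lower than in both lines. These include genes below the dim end, and the shares over all 15540 such genes were 5.34% and 9.41%. Chromosome 3 was kept.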

How the data were processed

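RNA of 8 cultures was hybridized to 1 Affymetrix mouse array each. The deposited values are log2 levels that the authors obtained by RMA, with a chip definition that groups probes by RefSeq transcript. RMA makes the distributions of the arrays alike, so a level is relative to the other genes of its array. No genome build is given in the sources used here. The table holds 22587 probe sets. The 64 control probe sets were left out, and probe sets with identical values, to 6 decimals, were counted once, which left 18172 profiles. RefSeq genes of GRCm38.p6, used for names and gene order, matched 18294 probe sets (81.2%). A profile with 1 symbol named 15540 genes, by the profile brightest on average where there were several.

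The 3 line means were fitted with limma 3.58.1 (R 4.3.3), and p-values were Benjamini-Hochberg adjusted over all profiles. A member needed an adjusted p under 0.05 and the same direction against Ind-8 and against Con-3, and the larger of these p-values is printed. The study's rank product test was re-implemented with 100 permutations. Other steps ran in Python 3.11.15. Members and lists were chosen with earlier results of these data known. Named genes were the 15 higher and 15 lower genes with the largest difference from the nearer line, label checks, up to 4 called members per list and those next to the threshold, with some results withheld for evaluation not reported here, and further genes were named for their role after their values were seen. The alternatives were other filters, other scalings, other limma settings, blocks by replicate number and by hybridization-control level (3 arrays high), and each array left out. On simulated data with the spread of these profiles, the call against both lines recovered 21% of profiles changed by 0.5 on the log2 scale. It recovered 98% of those changed by 1, with 1 false call. The simulation changed only 100 profiles by each size and held no array-wide shift, so these rates need not hold for the real arrays. Arrays have no sequencing depth, and their number and a level's distance from the dim end limit the precision.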

Additional observations from a re-analysis of the deposited data

Results flagged for a closer look

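The hybridization-control probe sets, which enter no comparison, averaged 9.57 on the tI-3 arrays, against 9.02 on the Ind-8 arrays and 9.27 on the Con-3 arrays. The control probe sets for 18S ribosomal RNA averaged 10.6 on Con-3 replicate 3, against 5.58 to 6.46 on the other arrays. Without that array 1097 profiles were higher and 1475 lower in tI-3 than in both lines.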

How the results depend on the processing

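Counts of profiles higher and lower in tI-3 than in both lines were 964 and 1597. They became 131 and 258 with the hybridization-control level as a block, 55 and 162 with a minimum log2 difference of 1, and 33 and 117 by the rank product test. Against the mean of both lines 2417 and 2995 became 323 and 733 with that block and 99 and 294 with that minimum. Of the 964 and 1597 profiles, that block kept 120 and 248, the rank product test 33 and 116, and quantile normalization 640 and 1032. With each array left out in turn, 338 to 1097 were higher and 729 to 1496 lower than both lines, and 706 to 2694 higher and 1320 to 2949 lower than their mean, each lowest without tI-3 replicate 2. Without tI-3 replicate 1, 1454 were higher than the mean. Deviations of same-numbered arrays from their line means correlated at −0.232 to 0.367. Between Ind-8 and Con-3 these correlations were 0.024 to 0.367, against −0.401 to 0.127 for different numbers. The deviations of the 2 tI-3 arrays are mirror images, so their pairs cannot show a pairing. Whether the replicate numbers mark a pairing is therefore not settled. With the replicate number as a block 1353 profiles were higher and 1786 lower than both lines. Impdh2, −0.00 against the mean of both lines, turned to 0.0054 with the replicate block, 0.0040 with the hybridization-control block, 0.0181 centred, 0.0823 quantile-normalized, 0.0064 without Ind-8 replicate 3, 0.0046 without Con-3 replicate 2 and 0.0142 without tI-3 replicate 1, and was −0.0167 without tI-3 replicate 2. Mt1 turned to 0.132 when quantile-normalized. The cause was not tested. With 2 tI-3 arrays, changes of 0.5 were often missed in the simulated data, and profiles near the dim end give compressed differences.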
